A study of Mus musculus with 24 samples.

Results

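The interferon response and antigen presentation genes described here are 36 mouse genes, fixed by name, whose promoters were examined for acetylation of lysine 9 of histone H3 (H3K9ac), a mark of active promoters and enhancers. They were read among 21755 protein-coding genes on chromosomes 1 to 19 and X. By role, the list holds 6 class I antigen presentation genes, 2 transactivators of major histocompatibility complex (MHC) genes, 8 interferon regulatory factors, 2 STAT factors, 11 antiviral interferon-stimulated genes, 2 guanylate-binding proteins, 1 checkpoint ligand and 4 interferon receptor subunits.

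H3K9ac was profiled by ChIPmentation, in which a transposase tags the immunoprecipitated chromatin before sequencing, in spheroids of 4T1, a mouse mammary carcinoma cell line derived from a BALB/c tumor. There were 4 groups of 3 libraries. Scramble cells carried a non-targeting guide RNA. CPT1a knockout cells lacked the carnitine palmitoyltransferase through which long-chain fatty acids enter mitochondria for oxidation, and KAT2a knockout cells lacked a histone lysine acetyltransferase. Spheroids were collected on day 5. Palmitate was added at 75 µM in these 3 groups, and the remaining group, CPT1a knockout with acetate, received 5 mM acetate. The labels of that last group name no palmitate, whereas the study describes its acetylation profiles with and without acetate as coming from spheroids grown with palmitate. Whether the acetate libraries had palmitate too is therefore not settled, and acetate against CPT1a knockout may also compare media without and with it. According to the study's methods, Cas9 was induced with doxycycline in puromycin-selected lines, and the non-targeting guide was directed against EGFP. The labels do not say which guide or line each knockout library came from, nor whether the 3 replicates were separate cultures, so the p-values measure only the spread between these libraries. Acetylation at the promoters of the targeted genes does not show whether their coding exons were edited, and it was not used to check the labels. The comparisons ask how promoter H3K9ac differed after loss of CPT1a or of KAT2a, and after acetate was given to cells without CPT1a.

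The lists held 16201 to 34330 peaks per library. Their calling depth, the mean fragment coverage at which peaks were called, was recovered from the deposited values and ran from 0.554 in CPT1a knockout replicate 3 and 0.660 in acetate replicate 2 to 2.52 in scramble replicate 1. All 3 scramble libraries were deep, at 1.87 to 2.52. The median promoter fold enrichment over all genes was nevertheless lowest in the scramble group, at 18.7 to 19.4, apart from CPT1a knockout replicate 3 at 18.5, and reached 22.9 to 31.4 in the other 8 libraries. Fold enrichment was therefore ranked within each library. Epithelial identity was visible in the promoter calls, with 7 of 7 epithelial markers, among them Epcam and Krt8, called in all 12 libraries. None of 8 leukocyte markers and none of 4 endothelial markers had a promoter peak in any library. Of 5 fibroblast markers, Pdgfra was called in all 12 libraries, Col1a1 in 11, and Dcn, Lum and Thy1 in 0.

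Interferons are cytokines, and cells release type I interferons on sensing foreign nucleic acid. Type I interferons signal through the IFNAR1 and IFNAR2 receptor chains to a complex that holds STAT2 and IRF9 and binds interferon-stimulated response elements (ISREs). Interferon gamma signals through IFNGR1 and IFNGR2, and genes it induces often carry gamma-activated sites (GAS). Among the genes they induce are antiviral effectors and the machinery that cuts, transports and loads peptides onto MHC class I molecules for display to T cells. NLRC5 is the transactivator of that class I machinery, and in tumor cells loss of class I display is a known route of immune escape.

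The promoter sequences of 5 members are shown, 3 that passed the rank test and 2 that were called in only some libraries and hold an ISRE core. Each is 300 bases from RefSeq on GRCm38 (mm10), 250 before and 50 after the transcription start site (TSS), read 5′ to 3′ on the strand of the gene. Capitals mark matches, on either strand, to the ISRE core GAAANNGAAA, to GAS TTCNNNGAA or to the NF-kB consensus. Gbp2 lies at chr3:142620413-142620712 on the plus strand, Cd274 at chr19:29367188-29367487 on the plus strand, Tap1 at chr17:34187306-34187605 on the plus strand, Ifit3 at chr19:34583279-34583578 on the plus strand and Oas1a at chr5:120907476-120907775 on the minus strand.
Gbp2: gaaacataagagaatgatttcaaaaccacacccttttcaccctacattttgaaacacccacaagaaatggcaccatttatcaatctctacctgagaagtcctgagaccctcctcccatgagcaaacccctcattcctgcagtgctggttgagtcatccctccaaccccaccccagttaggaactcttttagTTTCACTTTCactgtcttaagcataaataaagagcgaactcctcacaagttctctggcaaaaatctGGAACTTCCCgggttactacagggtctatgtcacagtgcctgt
Cd274: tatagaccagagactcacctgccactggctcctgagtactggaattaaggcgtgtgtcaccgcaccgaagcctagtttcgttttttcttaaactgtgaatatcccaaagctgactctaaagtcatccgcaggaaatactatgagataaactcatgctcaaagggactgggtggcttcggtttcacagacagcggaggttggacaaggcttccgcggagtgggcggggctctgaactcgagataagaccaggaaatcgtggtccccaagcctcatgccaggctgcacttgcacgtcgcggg
Tap1: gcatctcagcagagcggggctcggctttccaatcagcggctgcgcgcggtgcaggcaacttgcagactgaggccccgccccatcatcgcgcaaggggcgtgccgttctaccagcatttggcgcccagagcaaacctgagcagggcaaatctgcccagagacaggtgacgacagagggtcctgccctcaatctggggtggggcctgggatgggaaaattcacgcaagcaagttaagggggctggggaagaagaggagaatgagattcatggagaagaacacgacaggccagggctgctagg
Ifit3: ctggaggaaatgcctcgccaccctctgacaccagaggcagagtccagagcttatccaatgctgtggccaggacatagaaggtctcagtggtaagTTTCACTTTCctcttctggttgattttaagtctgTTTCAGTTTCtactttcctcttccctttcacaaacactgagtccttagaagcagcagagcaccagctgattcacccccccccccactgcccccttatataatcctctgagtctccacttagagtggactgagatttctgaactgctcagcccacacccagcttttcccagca
Oas1a: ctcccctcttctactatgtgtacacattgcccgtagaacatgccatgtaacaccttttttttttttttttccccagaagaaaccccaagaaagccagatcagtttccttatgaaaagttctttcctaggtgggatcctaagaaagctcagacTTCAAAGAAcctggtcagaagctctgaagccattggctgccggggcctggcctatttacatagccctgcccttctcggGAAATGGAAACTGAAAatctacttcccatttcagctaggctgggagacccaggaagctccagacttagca

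Gbp2 held 1 ISRE core at -59, counted in bases from the RefSeq TSS, and 1 NF-kB match at 7. Ifit3 held ISRE cores at -156 and -122. In Oas1a, a pair of ISRE cores at -20 and -14 overlapped and a GAS match began at -98. Cd274 and Tap1 held none of the 3 motifs in this window. Sequences were matched for 32 of the 36 members, and Tap2, Nlrc5, Ciita and Usp18 were not matched. An ISRE core was present in 13 of the 32 (40.6%), against 3.47% of all 16433 promoters of the same length and 2.83% of the 8530 whose genes were called in all 12 libraries. GAS was present in 7 (21.9%) against 7.77% of all promoters, and the NF-kB consensus in 10 (31.3%) against 9.47%. The 13 promoters with an ISRE core were those of B2m, Irf2, Stat2, Isg15, Ifit1, Ifit3, Ifih1, Ddx58, Oas1a, Rsad2, Bst2, Gbp2 and Gbp3. Isg15 held 3 cores. These are matches of letters, and binding was not measured.

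Most of the genes carried H3K9ac at their promoters in every condition. A promoter call means at least 1 deposited peak within 1 kb of any TSS of the gene in GENCODE vM21. Calls in all 12 libraries were made for 30 of the 36 members (83.3%), against 49.5% of all coding genes. Another 5.36% of all genes were called in 1 to 11 libraries and 45.1% in 0. The 30 included all 6 class I presentation genes, all 4 receptor subunits, both STAT factors, both guanylate-binding proteins, Cd274 and Nlrc5, 7 of 8 interferon regulatory factors, and 7 of 11 antiviral genes. With all lists brought to a calling depth of 0.55, 23 members (63.9%) were called in all 12 libraries, against 46.9% of all coding genes. The other coding genes within 2 kb of a member's TSS were Psmb9 at Tap1, Zbtb22 at Tapbp, Gm17334 at Irf1, Bcl2l12 at Irf3, Apof at Stat2, Ifit1bl2 at Ifit1 and Plgrkt at Cd274, and a peak there cannot be assigned to only 1 of the pair. H2-K1 and H2-D1, the Ifit genes, Gbp2 and Gbp3, and Oas1a have close paralogs, so their reads are less certain to be placed, and the MHC haplotype of BALB/c differs from that of the C57BL/6J reference. How reads that match several places were treated is not given in the sources used here, and its part in the values was not tested.

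A promoter call was missing in some or all libraries for 6 members. Irf4, a regulatory factor best known from lymphocytes, had no promoter peak in any library, and its nearest peak lay 88079 to 88567 bp from a TSS. Oasl1, a member of the oligoadenylate synthetase family, had its nearest peak 18387 to 18943 bp away. Rsad2, which encodes the antiviral protein viperin, was also called in 0 libraries. Its nearest peak was 965166, 965437 and 965259 bp away in scramble replicates 1, 2 and 3, but 12449 to 12887 bp away in each of the 9 other libraries. That closer position is the promoter of Cmpk2, an interferon-stimulated gene whose TSS is 12752 bp from that of Rsad2. Cmpk2 was called in 0 of 3 scramble libraries and in 9 of 9 others, a pattern shared by 17 of the 21755 coding genes (0.0781%). Cmpk2 was singled out after its values were seen. At equal depth it was called in 3 CPT1a knockout, 2 acetate and 1 KAT2a knockout library and in 0 scramble libraries. No scramble call beside 6 or more of the 9 others was then found in 341 genes (1.57%).

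Ciita encodes the transactivator of MHC class II genes. It had no promoter peak in scramble replicates 1 to 3, peaks in CPT1a knockout replicates 1 and 2 but not 3, a peak in acetate replicate 3 only, and peaks in all 3 KAT2a knockout libraries. The peaks were narrow. They spanned 398 and 567 bp in CPT1a knockout, 743 bp in acetate replicate 3, and 551, 486 and 200 bp in KAT2a knockout, with fold enrichments of 4.23, 5.19, 4.91, 8.08, 6.40 and 5.97 in the same order. All are far below the median promoter of their libraries. At equal depth, 2 KAT2a knockout libraries kept a call. In the lists as deposited, no scramble call beside 6 or more of the 9 others was found in 102 coding genes (0.469%). At equal depth 341 genes (1.57%) had that pattern, and Ciita no longer did. Ifit3, an interferon-induced protein with tetratricopeptide repeats, was called in CPT1a knockout replicate 2, over 292 bp, and in acetate replicate 2, over 200 bp, and at equal depth in 0 libraries. Oas1a encodes an oligoadenylate synthetase that switches on RNase L. It was called in 10 libraries, all but scramble replicate 3 and KAT2a knockout replicate 1. At equal depth both scramble calls were lost, while 3 CPT1a knockout, 3 acetate and 2 KAT2a knockout libraries kept theirs, and no scramble call beside 6 or more others was then found in 1.57% of coding genes. Its peaks spanned 322 and 232 bp in scramble, 600, 604 and 512 bp in CPT1a knockout, 738, 282 and 776 bp with acetate, and 360 and 348 bp in KAT2a knockout. The fold enrichment of Oas1a was 4.18 and 4.05 in scramble, 7.68, 10.3 and 9.38 in CPT1a knockout, 8.73, 5.07 and 8.71 with acetate, and 6.60 and 8.27 in KAT2a knockout. The 2 scramble values were below the other 8, on a scale that is not matched between libraries.

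The acetylated promoters mostly stood in the lower part of each library's ranking. For the 10777 genes whose promoter was called in every library, the strongest promoter peak was given a percentile by fold enrichment, from 0 for the weakest gene to 100 for the strongest gene of that library. The median percentile of the 30 members was 16.4 to 21.8 over the scramble libraries, 15.1 to 20.8 in CPT1a knockout, 17.1 to 23.4 with acetate and 14.3 to 20.2 in KAT2a knockout, where the median of all genes is 50 by construction. Averaged over the 12 libraries, 25 members stood at or below the 50th percentile and 5 above it. Promoter GC content, over 500 bp on either side of a TSS, had a median of 54.7% in the 30 members and 60.2% in all 10777 genes.

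**Figure D1:**
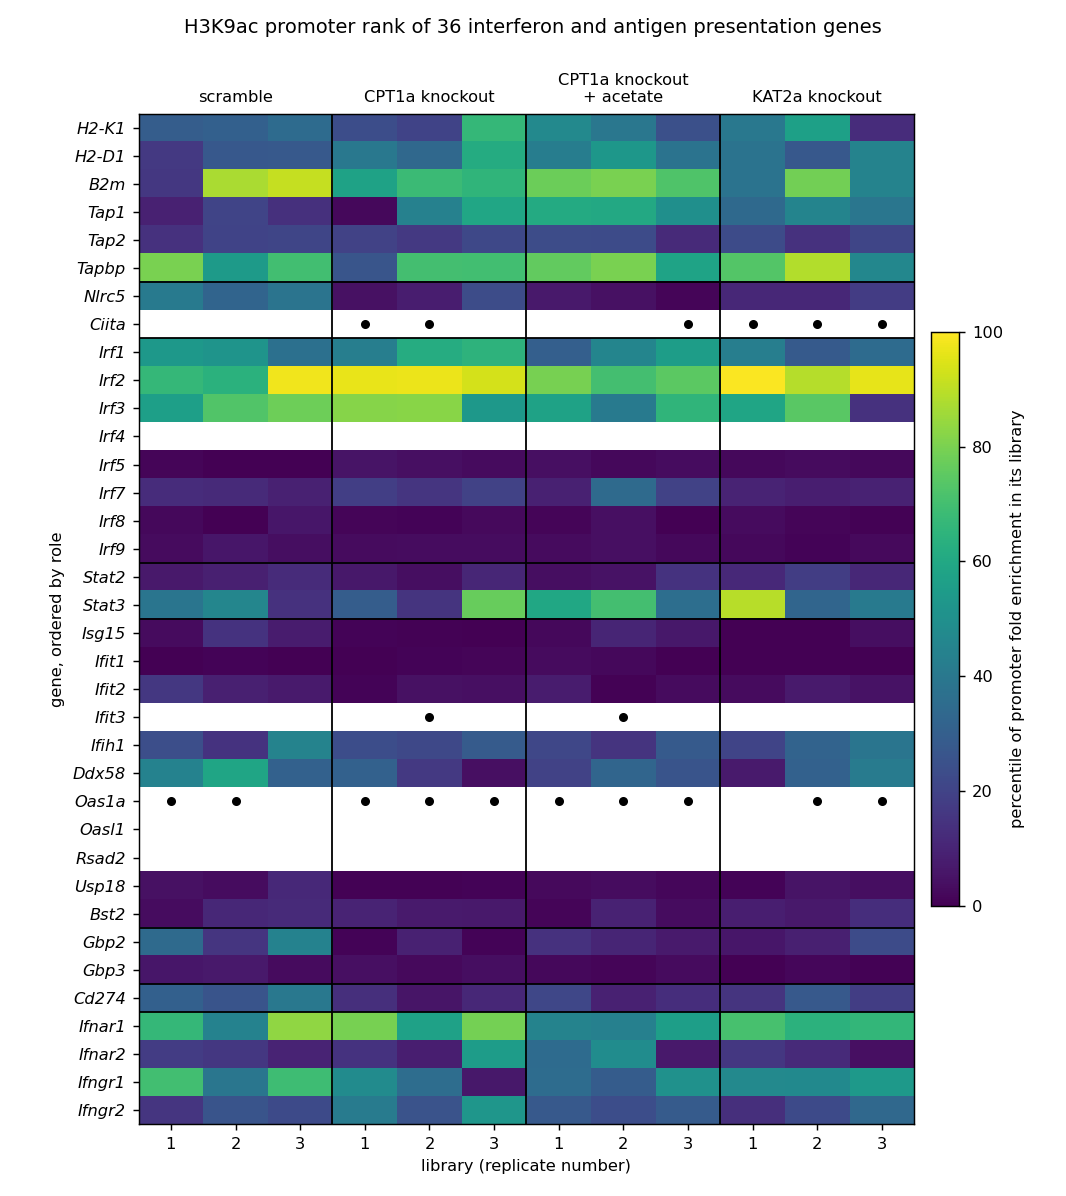
Within-library percentile of promoter fold enrichment (color scale, 0 to 100) for the 36 genes (rows, grouped by role) in the 12 libraries (columns, 3 replicates per group). Black dots mark a promoter peak in a gene not ranked because it was called in only some libraries, and white cells without a dot have no promoter peak. Irf2, B2m, Tapbp, Irf3 and Ifnar1 are bright, while most antiviral genes are dark in every group.

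Levels differed widely between the members. Irf2, a factor that competes with IRF1 for the same sites, stood highest, with a lowest, median and highest percentile over the 12 libraries of 64.0, 91.1 and 99.4. B2m, the invariant light chain of class I molecules, ranged from 16.4 to 91.1 with a median of 70.4. The low end was scramble replicate 1, while scramble replicates 2 and 3 stood at 87.3 and 91.1, so the spread within that group was as wide as the whole range. Tapbp, which encodes the peptide-loading factor tapasin, had a median of 70.0, Ifnar1 of 65.2 and Irf3 of 62.2, and the ranges of these neighbors overlapped. The class I heavy chains H2-K1 and H2-D1 lay lower, at medians of 32.8 and 37.9. At the bottom, Ifit1, an RNA-binding antiviral protein, never rose above 2.83. Irf5 stayed at or below 5.27, Irf8, a factor of myeloid cells, at or below 6.24, Irf9 at or below 6.15 and Gbp3 at or below 6.71. Isg15, a ubiquitin-like modifier, ranged from 0.176 to 14.8, and Usp18, the protease that removes it, from 0.719 to 11.5. The remaining signaling genes were spread between these ends, Stat2 from 3.56 to 18.02, Stat3 from 14.2 to 89.3, Irf7 from 8.24 to 34.4, Ifnar2 from 3.98 to 55.2, Ifngr1 from 6.43 to 69.7 and Ifngr2 from 13.6 to 52.7.

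Loss of CPT1a went with lower promoter rank of 3 members, Nlrc5, Gbp2 and Cd274, and 0 members rose. Ranks were tested with limma over all 10777 genes, with p-values adjusted by the Benjamini-Hochberg method over all of them. The remaining 27 members did not pass. Over all genes, 4.77% passed as higher and 5.24% as lower, so 3 of 30 lower and 0 of 30 higher is to be read beside those shares. Groups did not overlap for 10 of the 30 members, 3 higher and 7 lower in the knockout, against 30.9% of all genes. The median difference over the members was -1.01 percentile points, and over all genes 0.217. The direction of the members' median was not stable, at 8.89 with the trend of rank with GC content removed (0.419 over all genes) and 1.28 over the 23 members called everywhere at equal calling depth.

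Nlrc5 encodes the class I transactivator and lies at chr8:94434356-94527272 on the plus strand. The summit of its promoter peak lay a median of 145 bp after the TSS, and the promoter is 54.5% GC. Its percentile was 40.9, 32.2 and 38.6 in scramble replicates 1, 2 and 3, 4.60, 7.86 and 23.1 in CPT1a knockout, 6.67, 4.59 and 1.47 with acetate, and 11.3, 11.3 and 17.8 in KAT2a knockout. All 9 other libraries were below the lowest scramble library. The CPT1a knockout mean was 11.9 ± 9.88 (SD, n = 3) and the scramble mean 37.2 ± 4.47. They differed by -25.4 percentile points (SE 4.75, 95% interval -35.5 to -15.2, limma adjusted p = 0.00592). After the trend of rank with GC content was removed, the difference was -17.6 with a limma adjusted p of 0.0753, so the call ended. As deposited, the fold enrichment of Nlrc5 was 16.9, 15.6 and 16.3 in scramble, 11.4, 16.3 and 13.2 in CPT1a knockout, 12.2, 9.11 and 7.73 with acetate and 16.2, 17.3 and 16.7 in KAT2a knockout. On that unmatched scale the KAT2a knockout values were not below scramble, and the lower rank there stands beside a higher median over all genes.

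Gbp2 encodes an interferon-inducible GTPase that acts on intracellular pathogens, at chr3:142620602-142638008 on the plus strand. Its percentile was 34.5, 15.5 and 44.4 in scramble, 1.13, 9.05 and 0.882 in CPT1a knockout, 14.2, 10.5 and 7.42 with acetate, and 6.18, 8.78 and 22.9 in KAT2a knockout. The CPT1a knockout libraries lay below all 3 scramble libraries, which were themselves far apart, while KAT2a knockout overlapped scramble. The mean was 3.69 ± 4.65 (SD, n = 3) in CPT1a knockout and 31.4 ± 14.7 in scramble, a difference of -27.8 (SE 6.13, 95% interval -40.8 to -14.7, limma adjusted p = 0.0125). Its promoter, shown above with an ISRE core, is the poorest in GC of the 30 members, at 43.0%. With the GC trend removed the difference was -4.00 and the limma adjusted p 0.776. Without the 2 shallowest libraries it was -26.2 with an adjusted p of 0.0656. Gbp3, its neighbor and paralog, stood at 6.05, 6.71 and 2.90 in scramble and 4.04, 2.54 and 3.87 in CPT1a knockout, and did not pass.

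Cd274 encodes PD-L1, the ligand that restrains T cells through PD-1, at chr19:29367455-29388095 on the plus strand. The strongest peak had its summit a median of -558 bp from the TSS, toward Plgrkt. Cd274 stood at 30.5, 25.8 and 40.2 in scramble, 13.7, 5.49 and 11.04 in CPT1a knockout, 21.2, 9.13 and 13.2 with acetate, and 15.03, 27.9 and 18.3 in KAT2a knockout. CPT1a knockout did not overlap scramble, and KAT2a knockout did. The CPT1a knockout mean of 10.1 ± 4.18 (SD, n = 3) was below the scramble mean of 32.2 ± 7.32 by a difference of -22.1 (SE 5.18, 95% interval -33.1 to -11.1, limma adjusted p = 0.0171). The promoter is 47.3% GC, and with the GC trend removed the difference was -3.74 with a limma adjusted p of 0.776. The call was also lost without scramble replicate 3 (-18.04, adjusted p = 0.0632), without CPT1a knockout replicate 2 (-19.8, adjusted p = 0.0561) and without the 2 shallowest libraries (-22.3, adjusted p = 0.0548).

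Other members of the antiviral and receptor groups, and the class I gene H2-D1, differed between CPT1a knockout and scramble without passing. Ddx58, which encodes the RNA sensor RIG-I, stood at 44.3, 58.9 and 31.2 in scramble and 31.1, 16.7 and 4.18 in CPT1a knockout, a difference of -27.5 (95% interval -48.0 to -6.98, limma adjusted p = 0.0831). The groups met without overlapping. Ifngr1 differed by -29.1 (limma adjusted p = 0.135), while its partner chain Ifngr2 differed by 18.5 (adjusted p = 0.124). H2-D1 stood at 16.5, 27.4 and 28.1 in scramble and 40.1, 33.9 and 61.6 in CPT1a knockout, a difference of 21.2 (adjusted p = 0.151). Isg15 differed by -7.97 (adjusted p = 0.0829) and Usp18 by -5.63 (adjusted p = 0.115), both within the lowest percentiles of every library.

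**Figure D2:**
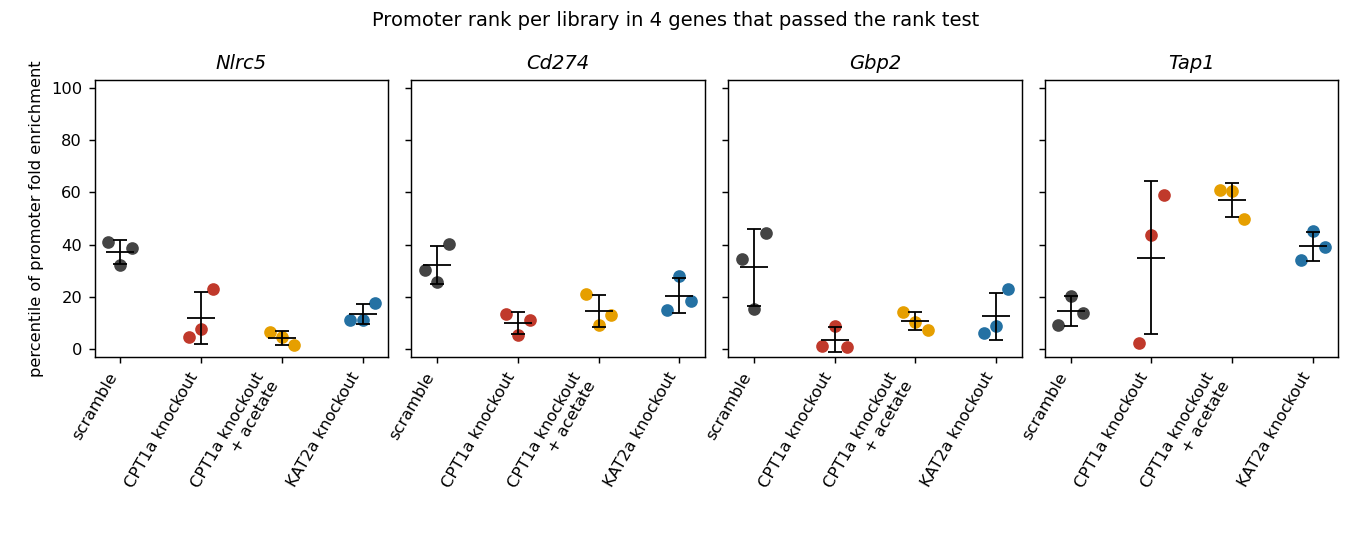
Percentile of promoter fold enrichment (y axis, 0 to 100) of Nlrc5, Cd274, Gbp2 and Tap1 in each library, by group. Colored points are libraries, the long horizontal mark is the mean of 3 and the bars are 1 SD. For Nlrc5 all 9 other libraries sit below the 3 scramble libraries, and Tap1 sits highest with acetate, at 49.7 to 61.0.

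Loss of KAT2a went with a lower rank of Nlrc5 alone among the 30 members. The 3 comparisons with scramble share its libraries, so the Nlrc5 values in scramble enter each of them. The KAT2a knockout mean of 13.5 ± 3.79 (SD, n = 3) differed from scramble by -23.8 percentile points (SE 4.75, 95% interval -33.9 to -13.6, limma adjusted p = 0.0145). Higher calls were 0 of 30 members and 1.7% of all genes, and lower calls 1 of 30 and 2.71%. Groups did not overlap for 5 members, 2 higher and 3 lower, against 29.3% of all genes. The median difference of the members was -1.72, and that of all genes 0.104. With the GC trend removed the members' median turned to 4.65, and that of all genes was 0.353. The Nlrc5 call ended with normal scores in place of percentiles (adjusted p = 0.0878), with the GC trend removed (-18.4, adjusted p = 0.101), without KAT2a knockout replicate 1 (-22.7, adjusted p = 0.0591), and without KAT2a knockout replicate 2 (-22.7, adjusted p = 0.0559). Gbp2 differed by -18.8 (adjusted p = 0.0961), Cd274 by -11.7 (adjusted p = 0.211) and Tap1 by 24.9 (adjusted p = 0.232), and these did not pass.

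In CPT1a knockout with acetate, Nlrc5 was lower and Tap1 higher than in scramble. Higher calls were 1 of 30 members and 1.66% of all genes, and lower calls 1 of 30 and 3.9%. Groups did not overlap for 3 members that were higher and 4 that were lower, against 31.9% of all genes. The median difference was -1.42 in the members and 0.148 in all genes. It turned to 1.80 in the members with the GC trend removed (0.268 in all genes), and was -2.76 at equal calling depth. Nlrc5 averaged 4.24 ± 2.62 (SD, n = 3) with acetate and differed from scramble by -33.0 (SE 4.75, 95% interval -43.1 to -22.9, limma adjusted p = 0.00216). With the GC trend removed it still passed, at -25.7 (adjusted p = 0.0329). It also passed with any single library left out. Gbp2 differed by -20.7 (adjusted p = 0.0606) and Cd274 by -17.6 (adjusted p = 0.0583), without overlap of the groups and without passing.

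Tap1 encodes a chain of the transporter that carries peptides into the endoplasmic reticulum, at chr17:34187553-34197225 on the plus strand. It shares its promoter region with Psmb9, an immunoproteasome subunit transcribed the other way, and both genes had the same strongest peak. Tap1 stood at 9.14, 20.5 and 13.9 in scramble, 2.32, 43.8 and 59.0 in CPT1a knockout, 61.0, 60.5 and 49.7 with acetate, and 34.0, 45.2 and 39.2 in KAT2a knockout. The acetate libraries lay close together and above scramble, whereas the CPT1a knockout libraries spanned the range of both. The acetate mean of 57.1 ± 6.43 (SD, n = 3) exceeded the scramble mean of 14.5 ± 5.69 by 42.6 (SE 11.5, 95% interval 18.05 to 67.1, limma adjusted p = 0.0445). The call depended on the libraries included. It was lost on leaving out any of 10 libraries, that is all but CPT1a knockout replicates 1 and 3, with adjusted p from 0.0515 to 0.148 and differences from 39.9 to 46.3. It was also lost without the 2 shallowest libraries (40.4, adjusted p = 0.0807) and with normal scores (adjusted p = 0.0733). Its partner chain Tap2 stayed at 12.05 to 23.2 in all 12 libraries.

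Acetate given to CPT1a knockout cells changed the rank of 0 of the 30 members by limma, against 3 genes higher (0.0278%) and 2 lower (0.0186%) of all tested. At an unadjusted p under 0.05, 1 member and 981 genes differed. Groups did not overlap for 5 members, 3 higher and 2 lower with acetate, against 14.2% of all genes. The member was Irf2, which stood at 96.6, 96.9 and 93.4 in CPT1a knockout and 79.6, 70.3 and 74.7 with acetate, a difference of -20.8 (95% interval -38.5 to -3.03, adjusted p = 0.473). The intervals for the other named members were wide. They were -17.7 to 2.51 for Nlrc5, -6.57 to 15.5 for Cd274, -6.03 to 20.1 for Gbp2 and -2.49 to 46.5 for Tap1.

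**Figure D3:**
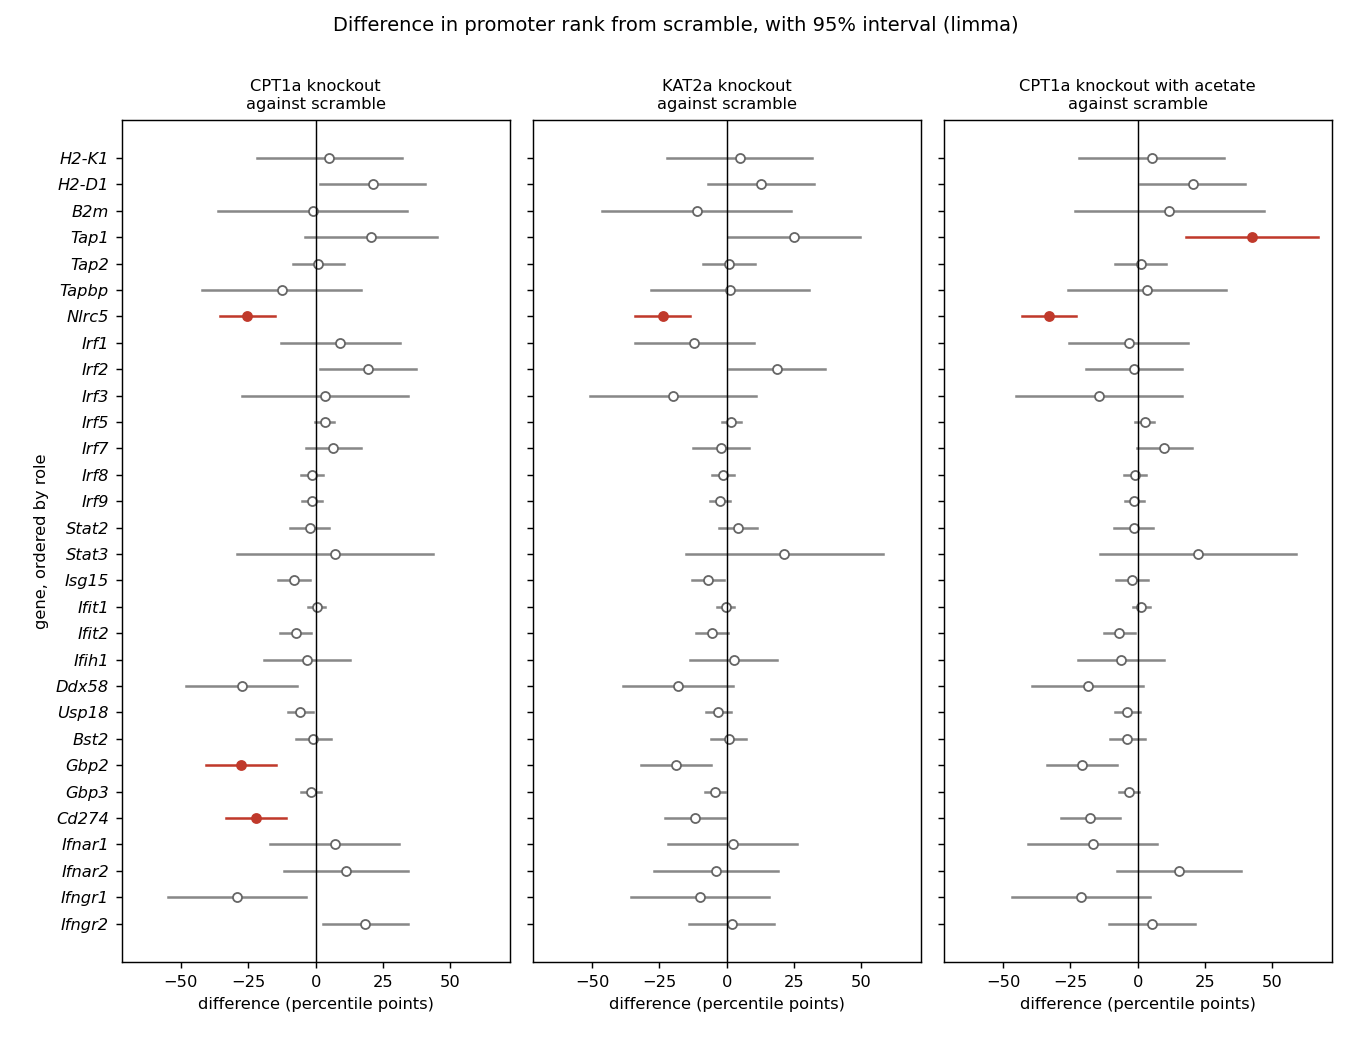
Difference in mean percentile from scramble (x axis, percentile points) with its 95% interval from limma for the 30 members called in all 12 libraries (y axis, by role), in 3 panels for the comparisons with scramble. Filled red points passed at an adjusted p under 0.05 over all genes. Nlrc5 passed in each panel, at -25.4, -23.8 and -33.0, and most other intervals cross 0.

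Peak width gave another view of the same promoters, and it was not tested at equal calling depth. The widths of all peaks overlapping the promoter were summed, and the log2 of that sum was compared with the median gene of the library, since the median over all genes was 2743 to 3411 bp in the scramble libraries and 1658 to 2566 bp in the others. A member called wider is therefore wider relative to the median gene and need not be wider in bp. Without this centring the median gene of CPT1a knockout, of acetate and of KAT2a knockout differed from scramble by -0.54, -0.38 and -0.32 on the log2 scale. The share of higher among all called genes was then 0.843%, 1.57% and 3.45%, in place of 64.9%, 63.8% and 63.4%. Over all genes, 13.8% passed as wider and 7.45% as narrower in CPT1a knockout, 11.1% and 6.27% with acetate, 10.7% and 6.15% in KAT2a knockout, all against scramble, and 0% and 0% for acetate against CPT1a knockout. For the members the counts in the same order were 6 wider and 3 narrower, 6 and 4, 3 and 1, and 0 and 0, of 30 each. Without centring the members' counts were 0 wider and 9 narrower in CPT1a knockout, 1 and 5 with acetate, 1 and 4 in KAT2a knockout, and 0 and 0. Over all 10777 genes the uncentred counts were 57 wider and 6701 narrower, 57 and 3567, 82 and 2296, and 0 and 0. With centring, 2 members and 674 genes had an unadjusted p under 0.05 for acetate against CPT1a knockout. The median log2 difference of the members was 0.15, 0.19, 0.17 and 0.0041, and that of all genes 0.034, 0.026, 0.030 and -0.017. Uncentred, the members' medians were -0.43, -0.22, -0.18 and 0.18, so the first 3 turned below 0.

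Narrower promoters were those of B2m, Cd274, Ifit2, Ifih1 and Gbp2. With peaks less than 500 bp apart joined, each of these calls was lost except that of B2m in CPT1a knockout, with limma adjusted p from 0.0611 to 0.208. B2m is the member whose narrowing passed in all 3 comparisons with scramble. Its peaks spanned 5477, 4277 and 4919 bp in scramble, 2681, 2390 and 1774 bp in CPT1a knockout, 2748, 2011 and 2843 bp with acetate, and 2568, 2958 and 2477 bp in KAT2a knockout. All 9 were narrower than the 3 scramble values. Relative to the median gene, the log2 difference was -0.54 in CPT1a knockout (SE 0.09, limma adjusted p = 0.00187), -0.55 with acetate (adjusted p = 0.00255) and -0.52 in KAT2a knockout (adjusted p = 0.00322). It passed with any single library left out. With peaks less than 500 bp apart joined, the acetate and KAT2a knockout calls were lost, at adjusted p of 0.0792 and 0.0611. The rank of B2m did not pass in any comparison.

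Cd274 spanned 3004, 2202 and 2786 bp in scramble, 1419, 1529 and 863 bp in CPT1a knockout, 1738, 1073 and 1542 bp with acetate, and 1754, 1870 and 1587 bp in KAT2a knockout. Every knockout library was narrower than every scramble library in bp. The log2 difference was -0.52 in CPT1a knockout (SE 0.14, limma adjusted p = 0.0174) and -0.49 with acetate (adjusted p = 0.0275), and -0.26 in KAT2a knockout did not pass (adjusted p = 0.2). The first was lost without scramble replicate 3 or CPT1a knockout replicate 3 (0.0554 to 0.0655). The second was lost without scramble replicate 1 or 3 or acetate replicate 2 or 3 (0.0584 to 0.0971). Ifit2, an inhibitor of viral translation, spanned 3991, 3318 and 3117 bp in scramble, 1091, 1394 and 307 bp in CPT1a knockout, 2039, 993 and 1936 bp with acetate, and 881, 2125 and 1203 bp in KAT2a knockout. This was the widest gap in log2 among the members that narrowed, at -1.58 in CPT1a knockout (SE 0.39, adjusted p = 0.0139), and it passed with any single library left out. The differences of -0.73 with acetate and -1.05 in KAT2a knockout did not pass. With only the strongest peak, a promoter window of 500 bp or joined peaks, the CPT1a knockout call was lost, with an adjusted p of up to 0.208.

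Ifih1, which encodes the RNA sensor MDA5, spanned 3090, 2163 and 2760 bp in scramble, 1709, 1663 and 1092 bp in CPT1a knockout, 1561, 1421 and 1689 bp with acetate, and 1691, 2037 and 1471 bp in KAT2a knockout. Only the acetate difference passed, at -0.36 (limma adjusted p = 0.0345), and it was lost without scramble replicate 1 or 3 or any 1 acetate library (0.0587 to 0.119). Gbp2 spanned 3083, 1496 and 2463 bp in scramble, 1390, 1338 and 939 bp in CPT1a knockout, 1256, 1024 and 1320 bp with acetate, and 1448, 1687 and 1199 bp in KAT2a knockout. Its scramble replicate 2 lay among the other groups. The acetate difference was -0.51 (adjusted p = 0.0463) and was lost on leaving out any of 10 libraries, all but scramble replicate 2 and CPT1a knockout replicate 3, with adjusted p of up to 0.157.

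Promoters wider relative to the median gene were those of H2-K1 and Tap2, of the regulatory factors Irf1, Irf2, Irf3 and Irf5, of Bst2 and of Ifnar1, and without centring H2-K1, Irf2, Irf3, Ifnar1 and, in CPT1a knockout, Tap2 turned below 0. With the strongest peak alone, each of these wider calls was lost, with limma adjusted p from 0.0605 to 0.917. Irf5, a mediator of Toll-like receptor signaling, had higher means in bp as well as in relative terms. Its peaks spanned 454, 1185 and 215 bp in scramble, 1206, 1044 and 498 bp in CPT1a knockout, 1223, 1124 and 1219 bp with acetate, and 1468, 1633 and 1226 bp in KAT2a knockout. Scramble replicate 2 stood apart from replicates 1 and 3, and CPT1a knockout and acetate overlapped scramble in bp. The log2 difference was 1.39 in CPT1a knockout (SE 0.46, limma adjusted p = 0.0462), 1.69 with acetate (adjusted p = 0.0248) and 1.90 in KAT2a knockout (adjusted p = 0.0154). The KAT2a knockout call was lost without scramble replicate 3 (adjusted p = 0.0517), the acetate call without any of 5 libraries, scramble replicates 1 and 3 and the 3 acetate libraries (up to 0.0859), and the CPT1a knockout call without any of 10, all but scramble replicate 2 and CPT1a knockout replicate 3 (up to 0.167) and also uncentred (0.81, adjusted p = 0.142).

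In H2-K1, the peaks spanned 2847, 2352 and 2207 bp in scramble, 2350, 2510 and 1862 bp in CPT1a knockout, 2444, 2253 and 2380 bp with acetate, and 2281, 2585 and 2212 bp in KAT2a knockout, which overlap in bp. The relative log2 difference was 0.44 in CPT1a knockout (SE 0.09, limma adjusted p = 0.00469), 0.35 with acetate (adjusted p = 0.0178) and 0.29 in KAT2a knockout (adjusted p = 0.0383). Uncentred, the differences were -0.14, -0.06 and -0.06, so the direction turned. The acetate call was lost without scramble replicate 3 or acetate replicate 1 or 2 (up to 0.066), and the KAT2a knockout call without any of 8 libraries, all but scramble replicate 2, CPT1a knockout replicate 3 and acetate replicates 2 and 3 (up to 0.125). Tap2 spanned 1283, 1176 and 1473 bp in scramble, 1364, 1507 and 1031 bp in CPT1a knockout, 1544, 1325 and 1852 bp with acetate, and 1572, 1332 and 1095 bp in KAT2a knockout. It was wider in relative terms by 0.56 in CPT1a knockout (adjusted p = 0.014), turning to -0.02 uncentred, and by 0.66 with acetate (adjusted p = 0.0081), which was 0.26 uncentred and did not pass. The first was lost without CPT1a knockout replicate 2 (adjusted p = 0.0528).

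Irf1, the factor that drives many class I genes, spanned 5813, 5239 and 4255 bp in scramble, 4715, 4722 and 3019 bp in CPT1a knockout, 5616, 4722 and 6442 bp with acetate, and 5309, 5425 and 3715 bp in KAT2a knockout. Its promoter was among the widest of the members, and the acetate difference passed at 0.54 (limma adjusted p = 0.00775), which it did with any single library left out, but uncentred it was 0.13 and did not pass. Irf2 spanned 5168, 4658 and 4884 bp in scramble, 3975, 4481 and 3367 bp in CPT1a knockout, 4595, 3943 and 4384 bp with acetate, and 4350, 4493 and 4008 bp in KAT2a knockout. All 9 values were below scramble in bp, and the relative difference in CPT1a knockout was 0.25 (adjusted p = 0.0371), which turned to -0.32 uncentred (adjusted p = 0.0426). The call was lost on leaving out any of 6 libraries, scramble replicates 1 and 3, CPT1a knockout replicates 2 and 3, acetate replicate 1 and KAT2a knockout replicate 1 (up to 0.113), and without the 2 shallowest. Irf3, the factor that switches on interferon genes after nucleic acid sensing, spanned 4108, 3654 and 3552 bp in scramble, 3649, 3470 and 2709 bp in CPT1a knockout, 3424, 3325 and 4210 bp with acetate, and 3632, 3454 and 3449 bp in KAT2a knockout. It was wider in relative terms by 0.37 in CPT1a knockout (adjusted p = 0.0152) and 0.35 with acetate (adjusted p = 0.0216), and both turned below 0 uncentred, at -0.21 and -0.05. The first was lost without CPT1a knockout replicate 1 (0.0549), the second without scramble replicate 1 or 3 or acetate replicate 2 or 3 (up to 0.0809).

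Bst2, which encodes tetherin, spanned 2785, 1557 and 1511 bp in scramble, 2037, 1948 and 1209 bp in CPT1a knockout, 2445, 1922 and 2541 bp with acetate, and 2478, 2182 and 1573 bp in KAT2a knockout. The acetate difference was 0.69 (limma adjusted p = 0.0132), and it was lost without scramble replicate 3 (adjusted p = 0.0551) and without centring. Ifnar1 spanned 2221, 1911 and 2124 bp in scramble, 1935, 1985 and 1302 bp in CPT1a knockout, 1914, 1651 and 1993 bp with acetate, and 2147, 2230 and 1665 bp in KAT2a knockout, with overlap in bp. Its relative differences of 0.29 in CPT1a knockout (adjusted p = 0.0355) and 0.29 in KAT2a knockout (adjusted p = 0.0448) turned to -0.28 and -0.06 uncentred. The first was lost without scramble replicate 1 or 2 or CPT1a knockout replicate 1 or 2 (up to 0.114) and the second without any 1 library except CPT1a knockout replicate 3 (up to 0.138).

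**Figure D4:**
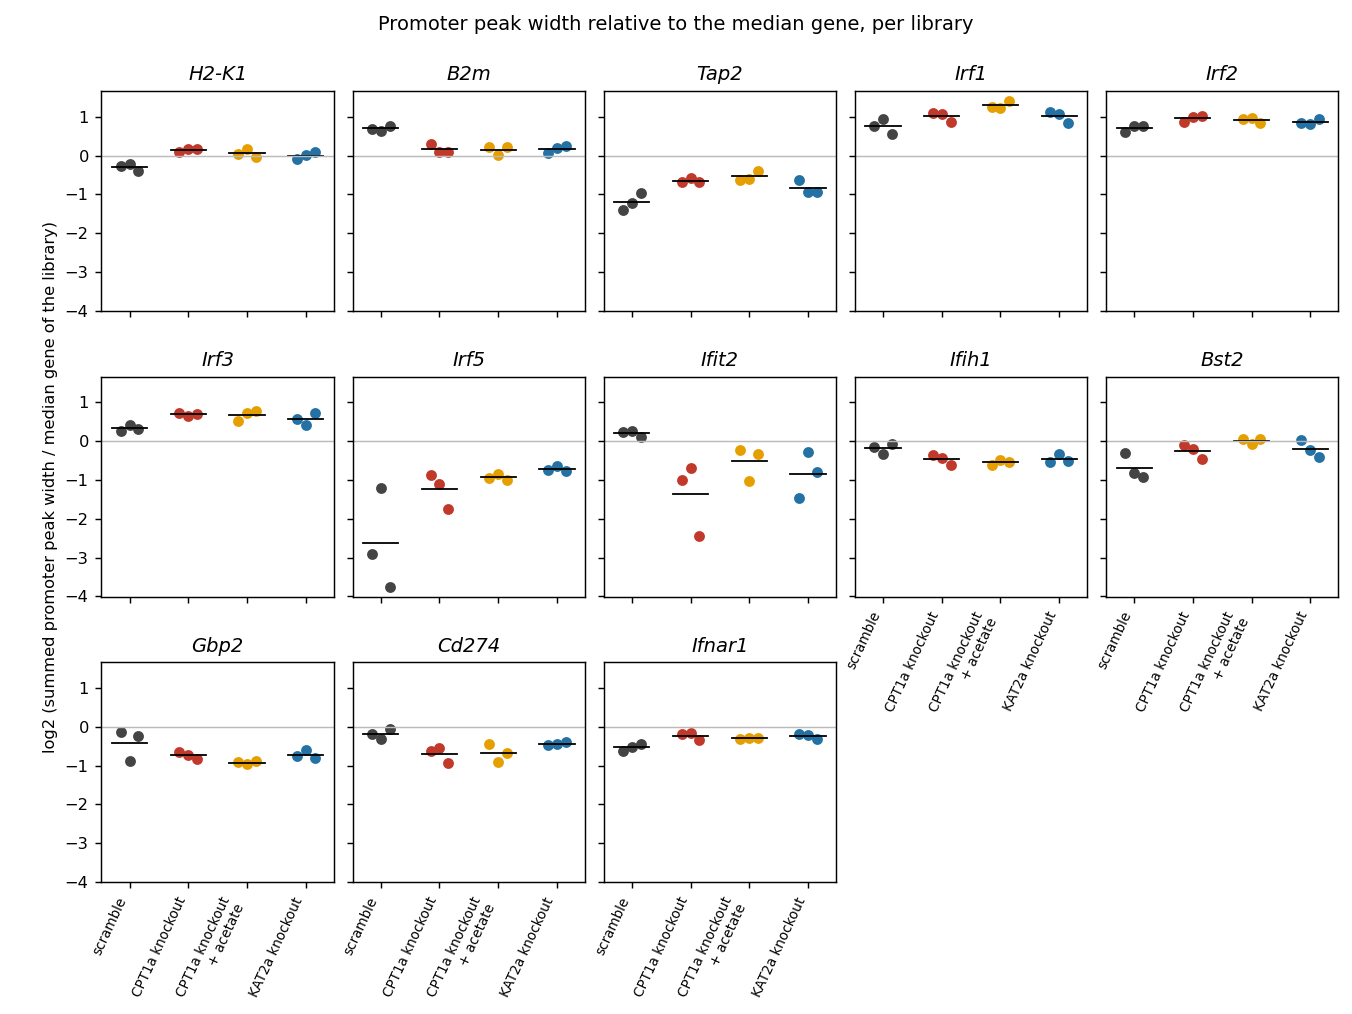
Log2 ratio of summed promoter peak width to the median gene of the same library (y axis, 0 is the median gene) for the 13 members that passed the width test in any comparison. Points are libraries by group (x axis) and short lines are group means of 3. B2m, Cd274 and Ifit2 sit highest in scramble, while H2-K1 and Tap2 sit lowest there on this relative scale, which turns for H2-K1, and in CPT1a knockout for Tap2, without centring.

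Other genes of the same pathways, a list of 73 of which 69 were in the annotation, were tested for rank in the same way. All 10 genes of JAK-STAT signaling and its inhibitors and all 12 of class I processing and folding were called in 12 libraries. The 4 interferon ligands listed, Ifnb1, Ifng, Ifnl2 and Ifnl3, were called in 0, and the class II genes H2-Aa, H2-Ab1 and H2-Eb1 also in 0. The other class II genes listed were H2-DMa, called in 12 libraries at group mean percentiles of 87.2 to 98.7, and Cd74, called in 2 CPT1a knockout and 2 acetate libraries, and at equal depth in 0. Nearby coding genes were looked for only at the members, so whether the H2-DMa peak is shared with a neighbor was not examined. In all, 54 were called in 12 libraries and tested. In CPT1a knockout, 0 passed as higher and 2 as lower, beside 4.77% and 5.24% of all genes. These were Samd9l, an antiviral restriction factor, at 3.17 against 26.9 in scramble (limma adjusted p = 0.00305), and Dhx58, a regulator of RIG-I signaling, at 5.79 against 15.8 (adjusted p = 0.0348). In KAT2a knockout the same 2 genes were lower, Samd9l at 1.502 (adjusted p = 0.00306) and Dhx58 at 5.44 (adjusted p = 0.0478), and 1 gene passed as higher, beside 2.71% lower and 1.7% higher over all genes. With acetate against scramble, Samd9l at 10.8 (adjusted p = 0.0241) and the nonclassical class I gene H2-M3 at 9.12 against 30.4 (adjusted p = 0.0326) were lower, and Psmb9 was higher with the values of Tap1, beside 3.9% lower and 1.66% higher over all genes. Acetate against CPT1a knockout gave 0 of 54 in either direction. These pathway calls were not repeated under the other settings used for the members. In CPT1a knockout against scramble, Dhx58 was wider relative to the median gene, by 0.52 log2 (limma adjusted p = 0.0209). Samd9l differed in width there by -0.42 and did not pass (adjusted p = 0.251).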

How the data were processed

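H3K9ac ChIPmentation peak lists of 12 libraries were used, and the 12 inputs were not analysed here. The authors' methods give BWA alignment to mm10 and duplicate removal with Picard, and the labels list Bowtie2 and MACS2. Versions of BWA, Bowtie2 and MACS2, and use of the inputs, are not given in the sources used here. The methods and labels also name different antibody catalogue numbers. Each list was called on 1 library. The deposited fold enrichment is the ratio of summit pileup to local background, the caller's p and q were deposited as -log10 values, and the deposited score follows from q. None is scaled between libraries, and the spiked-in fly chromatin was not used, so a change common to all promoters cannot be seen.

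Peaks were assigned to promoters within 1 kb of any TSS (GENCODE vM21). Percentiles and log2 widths were tested with limma 3.58.1 (moderated, trend, all 12 libraries, adjusted p under 0.05), after tests on simulated data. A gene without a peak in any 1 library was not tested, which leaves 30 of 36 members. Calling depth was recovered from fold enrichment and p for peaks with -log10 p under 60. The GC trend was removed in 50 bins. The members and lists were chosen with earlier results of these data known. The values of the pathway gene that passed as higher in KAT2a knockout are not reported here. Full per-library values were given for members that passed either test or were called in 1 to 11 libraries. Same-numbered replicates did not deviate together (correlations of -0.062 to 0.067 for rank and -0.306 to 0.267 for width), so replicates were not paired.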

Additional observations from a re-analysis of the deposited data

How the results depend on the processing

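Of the counts of members that passed the rank test against scramble, that for CPT1a knockout was 3 as reported, 6 with normal scores in place of percentiles, 9 with ranks of -log10 p and 1 (Nlrc5) without the 2 shallowest libraries, a setting chosen after seeing the data. Over all genes the counts in the same order were 1079, 1138 and 3438 of 10777, and 536 of 10930. Removal of the GC trend also gave 3, but these were Gbp3 and Usp18 higher and Irf5 lower, beside 747 of all 10777 genes. For KAT2a knockout the count of 1 became 6 with ranks of -log10 p and 0 with the GC trend removed, and with normal scores it was 1 but the gene was Gbp3, lower, in place of Nlrc5. Over all 10777 genes, 475 passed as reported, 2327 with ranks of -log10 p, 258 with the GC trend removed and 413 with normal scores. For acetate against scramble the count of 2 became 1 with normal scores, 8 with ranks of -log10 p and 1 without the shallowest libraries. The all-gene count of 599 became 638, 2550 and 120 in the same settings. Acetate against CPT1a knockout gave 0 in every setting. Leaving out 1 library at a time gave 3 to 4, 0 to 2, 1 to 3 and 0 to 0 members for CPT1a knockout, KAT2a knockout and acetate against scramble and acetate against CPT1a knockout. Over all genes these ranges were 495 to 1125, 140 to 556, 151 to 725 and 0 to 17. The KAT2a knockout count was 2 without scramble replicate 2 and 0 without KAT2a knockout replicate 1 or 2. The acetate count was 1 without scramble replicate 1 or 3, CPT1a knockout replicate 2, any acetate library, or KAT2a knockout replicate 1 or 2.

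The width counts against scramble were 9 in CPT1a knockout, 4 in KAT2a knockout and 10 with acetate, beside 2290, 1812 and 1868 of all 10777 genes. With the strongest peak alone the members' counts were 4, 6 and 6, and those of all genes 1585, 1294 and 1079. A 500 bp window gave 5 and 2 for the knockouts, and without the shallowest libraries KAT2a knockout gave 7 and acetate 6. Over all genes these were 2133 and 1766 of 10664, and 2200 and 1626 of 10930. Acetate gave 6 without centring and 6 with joined peaks, beside 3624 and 2115 of all genes. Leaving out 1 library at a time gave 5 to 11, 1 to 6 and 3 to 10 members. Over all genes it gave 1371 to 2409, 896 to 2038 and 950 to 2197. CPT1a knockout gave 5 without its replicate 2. KAT2a knockout gave 1 without scramble replicate 3, and 2 without CPT1a knockout replicate 1 or 2, acetate replicate 1 or any KAT2a knockout library. Acetate gave 5, 3, 6, 4 and 5 without scramble replicates 1 and 3 and acetate replicates 1, 2 and 3. Directions turned without centring for H2-K1 (-0.143 in CPT1a knockout, -0.0601 in KAT2a knockout and -0.0578 with acetate), Tap2 (-0.0229), Irf2 (-0.324), Irf3 (-0.212 and -0.0512) and Ifnar1 (-0.283 and -0.0591), and with the strongest peak alone for Irf3 (-0.0295 and -0.0382). Other lost calls were weaker, with the same direction. The causes were not tested.

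With the replicate number as a block, the rank test called the same members, 3 in CPT1a knockout, 1 in KAT2a knockout and 2 with acetate when each was set against scramble, and 0 between acetate and CPT1a knockout. The width test called 9, 3, 8 and 0 in that order. Over all genes the blocked tests called 945, 338, 455 and 0 by rank and 2109, 1652, 1697 and 0 by width. Bst2 took the place of Ifnar1 in CPT1a knockout. KAT2a knockout lost H2-K1 and Ifnar1 and gained Bst2, and acetate lost Ifih1 and Gbp2. The labels do not say that a number marks a shared culture. Peaks below the threshold of a list could not be seen, which limits the shallow lists most.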
